A study of Mus musculus with 80 samples.

Results

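The cerebellum was compared between virgin and primiparous female mice, the second having raised 1 litter. The libraries were chosen by the region and reproductive state in their labels, which gave 15 of the 77 libraries of the count table, 7 virgin and 8 primiparous. Each library held the polyadenylated RNA of the cerebellum of 1 C57BL/6 female (C57BL/6J in the methods), and per the methods the tissue came from the left side. Primiparous females were put with a male at about 8 weeks of age for 2 weeks, then bore and weaned pups, whereas virgin females of the same age never met a male, so mating, company, pregnancy and pup care cannot be told apart in this design. The labels place the harvest 3 weeks after weaning and the methods give a longer interval.

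The cerebellar cortex is built from a very large number of small granule cells, the Purkinje cells that send its output, and inhibitory interneurons. Bergmann glia, the radial astrocytes of the cerebellum, wrap the Purkinje cell dendrites, oligodendrocytes form the myelin of the axons, and microglia are the resident immune cells. The region is best known for the control of movement, and the question here was which of its cell types and cell functions the genes that differ between the states belong to.

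Of 13016 genes tested, 92 (0.707%) differed between the states, with a Benjamini-Hochberg adjusted p below 0.05 in edgeR's quasi-likelihood F-test. In primiparous females 78 of them (0.599% of the genes tested) were higher and 14 (0.108%) were lower. The changes were small, from 1.19-fold to 1.79-fold with a median of 1.28-fold among the higher genes, and from 1.15-fold to 1.43-fold with a median of 1.2-fold among the lower genes. The higher genes included markers of Bergmann glia and astrocytes (Fabp7, Aqp4, Hopx), of oligodendrocytes (Mbp, Olig1, Ugt8a) and of microglia (C1qa, C1qb), and subunits of the respiratory chain. The lower genes included the clock gene Nr1d1 and the potassium channel gene Kcnh1. All primiparous libraries lay above all virgin libraries for 19 of the 78 higher genes and below them for 2 of the 14 lower genes. Over all genes tested, 26 (0.2%) and 12 (0.0922%) separated the groups in that way.

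These calls rested on few animals. Without virgin animal 4486, 6 genes passed, namely Fabp7, Thbd, Rpl13a, Prdm8, Olig1 and Bhlhe22. Without virgin animal 409, 8 passed, which were those 6 with C1qb and Camk2n2, and without primiparous animal 4493 the number rose to 903. Of the virgin animals 2 carried a number of 3 digits and 5 one of 4, while of the primiparous animals 7 carried 3 digits and 1 carried 4, and what the digits mark is not given in the sources used here. With the number series as a covariate, edgeR called 0 genes (smallest adjusted p = 0.271), with 787 at an unadjusted p under 0.05. Among the animals with 3 digits alone it also called 0 (smallest adjusted p = 0.224), with 1149 at an unadjusted p under 0.05. All 92 genes kept their direction in both fits, and so did 10827 and 10766 of the 13016 genes tested. Both fits reuse libraries in which the 92 were called, so this agreement is no independent test. The median size of the log2 difference was 0.317 and 0.381 for the 78 higher genes, against 0.36 without the covariate. Animal 4493 was the only primiparous animal of its series, and the part of the series in the differences was not tested apart from these fits.

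**Figure D1:**
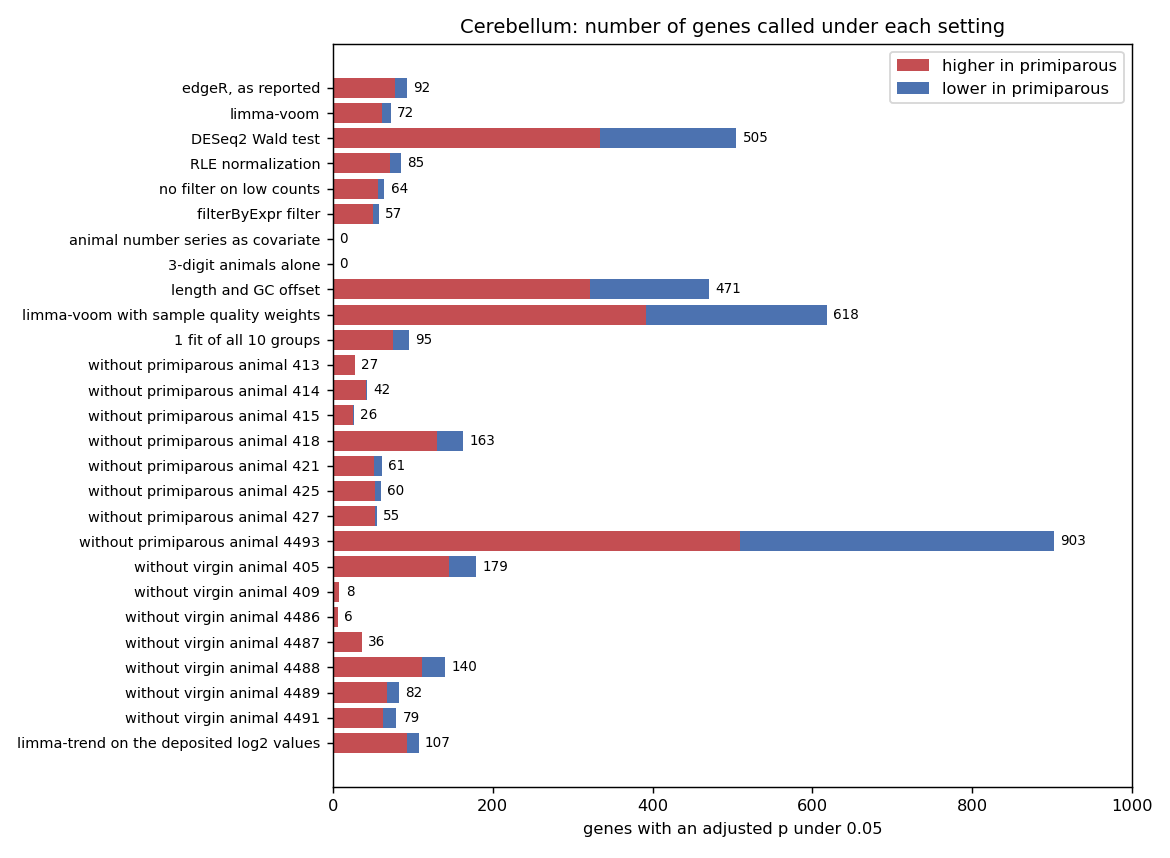
Horizontal axis, number of cerebellum genes with an adjusted p under 0.05; each bar is 1 setting, split into genes higher (red) and lower (blue) in primiparous females. The reported edgeR fit gave 92 genes, the fits that took account of the animal number series gave 0, and leaving out 1 animal gave from 6 to 903.

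The virgin libraries held 8702483 to 23755185 counted reads (median 18717580) and the primiparous libraries 10978327 to 29090360 (median 22169476). Levels of single genes are given as CPM (counts scaled to a fixed library total) on library sizes scaled by TMM, a normalization that assumes that most genes do not differ. Summed levels of gene lists are CPM on the library totals without TMM, and so are the counts of libraries compared by those sums. The median log2 fold change (primiparous over virgin) of all genes was 0.00507, and 6711 of them (51.6%) were above 0. At an unadjusted p under 0.05 (edgeR), 10.7% of all genes were higher and 8.83% lower, the background for the list counts below. Some other settings called more genes over all 13016: 505 with DESeq2, 471 with a length and GC offset and 903 without animal 4493. List counts under those settings are to be read beside these totals. The defining markers of the cerebellum were strongly detected, with means of 658 and 622 CPM for Gabra6 and 332 and 373 CPM for Pcp2 in virgin and primiparous females. On the first principal component, which held 33.1% of the variance, 4 primiparous libraries (413, 414, 415 and 427) lay beyond all virgin libraries and the other 4 lay among them. Because whole tissue was sequenced, more cells of a type and more RNA per cell cannot be told apart.

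Bergmann glia and astrocyte markers included the gene with the largest fold change among the called genes, Fabp7, which encodes the brain fatty acid binding protein of radial glia. Its level was 16.4 to 27 CPM in virgin females (median 22), against 29.1 to 52.5 in primiparous females (median 40.3). The groups did not overlap, and the log2 fold change came to 0.84 (standard error 0.128, adjusted p = 0.00774, edgeR). Aqp4, the water channel of astrocyte endfeet, had 278 to 338 CPM in virgin females (median 304), against 339 to 414 in primiparous females (median 387). These ranges were separate by a narrow gap, with a log2 fold change of 0.3 (standard error 0.0558, adjusted p = 0.0175, edgeR). Hopx, a homeodomain factor found in Bergmann glia, had 137 to 164 CPM (median 148) in virgin females and 159 to 224 (median 178) in primiparous females. Its groups overlapped in 1 primiparous library, and its log2 fold change came to 0.3 (standard error 0.0607, adjusted p = 0.0254, edgeR).

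Of 17 markers of Bergmann glia and astrocytes, 3 were called higher and 0 lower, and 7 were higher at an unadjusted p under 0.05 (10.7% of all genes). The median log2 fold change of the list was 0.0478. With a length and GC offset it was 0.0933, and 5 markers were called there, where 471 of all genes were. Slc1a3 and Glul, the glutamate transporter and glutamine synthetase of these cells, had log2 fold changes of 0.00 and -0.01 with means of 1613 and 1614 CPM and of 1209 and 1204 CPM, and Gdf10, a Bergmann glia marker, had -0.1 (adjusted p = 0.316, edgeR). Other called genes that act in radial glia or astrocytes, outside the list and matched to these cells after their values were seen, were Sox1, Sox2, Id4, Gas1 and Metrn. Sox2, a transcription factor of neural stem cells and glia, had 27.9 to 41.5 CPM in virgin and 39.3 to 58.2 CPM in primiparous females, a log2 fold change of 0.39 (adjusted p = 0.0439, edgeR). Metrn, which encodes a secreted factor of glia, had 260 to 338 and 298 to 475 CPM, a log2 fold change of 0.4 (adjusted p = 0.0279, edgeR). In both of these genes the ranges overlapped. Without animal 4486 or without animal 409, 1 of the 3 list markers, Fabp7, still passed, and without animal 4493 there were 6, against 5 with DESeq2. Over all 13016 genes, 903 were called without animal 4493 and 505 with DESeq2.

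Fabp7 (Entrez 12140) spans chr10:57784923-57788450 on GRCm38 (mm10) with 4 exons. Its promoter is printed because it is the glial gene whose groups lay farthest apart in fold. The sequence is RefSeq's on GRCm38.p6, chr10:57784673-57784972 on the plus strand, from 250 bases before to 50 bases after the start, and capitals mark CCAAT on either strand, read here as ATTGG.
Fabp7: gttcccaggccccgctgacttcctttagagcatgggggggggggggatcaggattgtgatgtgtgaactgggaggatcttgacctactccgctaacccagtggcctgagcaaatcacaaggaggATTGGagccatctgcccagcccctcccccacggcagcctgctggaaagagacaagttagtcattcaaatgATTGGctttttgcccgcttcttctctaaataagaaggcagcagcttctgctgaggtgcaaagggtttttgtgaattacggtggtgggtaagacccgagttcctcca
The 300 bases held 2 such matches and no TATAAA. Of the 60 higher genes with a promoter in the RefSeq table, 27 (45%) held CCAAT on either strand, against 3951 of 10260 promoters of the genes tested (38.5%). GGGCGG was in 61.7% of the higher genes' promoters and 65.4% of all, and TATAAA in 6.67% and 6.72%. The E-box CACGTG was in 2 of the 60 (3.33%) against 10.3% of all. A match is a description of the letters and was not tied to a factor.

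**Figure D2:**
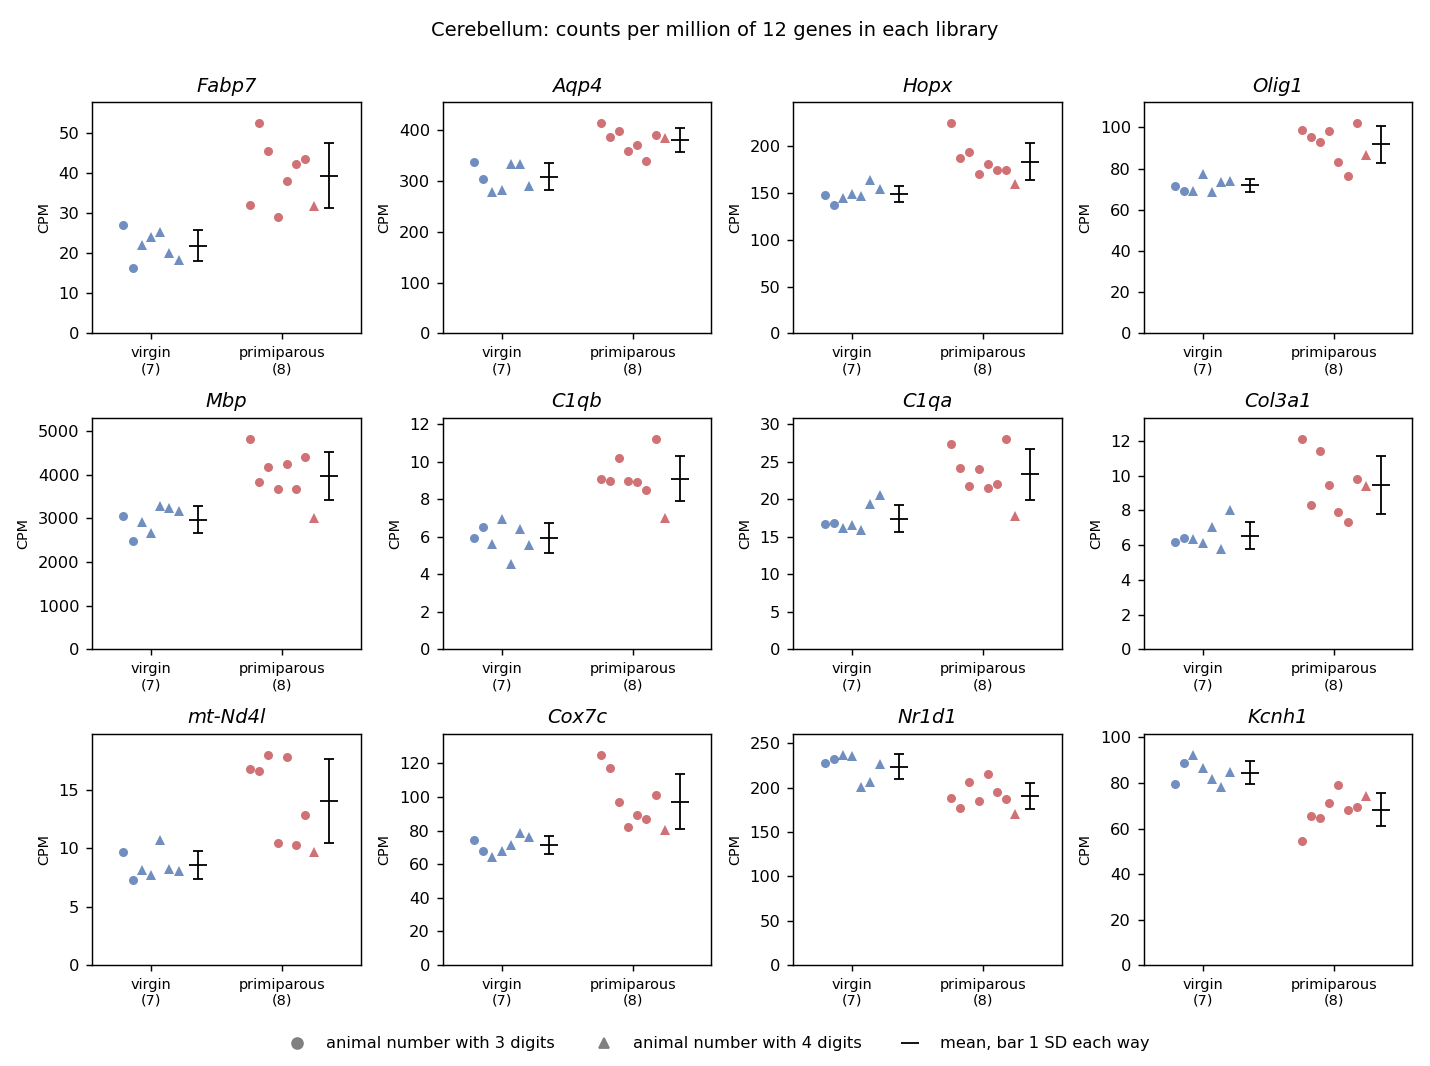
Vertical axes, CPM in each cerebellum library from 0; circles are animals with 3-digit and triangles with 4-digit numbers, and the black mark is the mean with 1 SD each way. Fabp7, Aqp4, C1qb and Cox7c separate the 7 virgin from the 8 primiparous libraries, while Hopx, Olig1, Mbp, C1qa, Col3a1, mt-Nd4l, Nr1d1 and Kcnh1 overlap in at least 1 library.

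Oligodendrocyte markers leaned to higher values in primiparous females. Of 25 markers, 3 were called higher and 0 lower, 16 were higher at an unadjusted p under 0.05, all 25 had a log2 fold change above 0, and the median was 0.165. Olig1, a transcription factor of the oligodendrocyte lineage (Entrez 50914, chr16:91269769-91271939), had 68.9 to 77.2 CPM in virgin females (median 71.7), against 76.5 to 102 CPM in primiparous females (median 94.2). Only the lowest primiparous library fell within the virgin range, and the log2 fold change came to 0.35 (standard error 0.0597, adjusted p = 0.0114, edgeR). Mbp, which encodes myelin basic protein, was the most abundant marker, with 2487 to 3283 CPM in virgin females (median 3058), against 3019 to 4819 in primiparous females (median 4000). Of the 8 primiparous libraries 7 were above the highest virgin library, and the log2 fold change came to 0.42 (standard error 0.0826, adjusted p = 0.0254, edgeR). Ugt8a, the enzyme that makes the myelin lipid galactosylceramide, had 46.7 to 62.2 CPM and 55.5 to 76.1 CPM, with overlapping groups and a log2 fold change of 0.31 and an adjusted p that was under the threshold by less than its rounding (0.05, edgeR).

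The other markers had positive values without passing, as with Sox10, a lineage factor, at 0.26 (adjusted p = 0.0932, edgeR). Prr18, Gjb1 and Plekhb1, genes outside the list that oligodendrocytes use, were called higher, with log2 fold changes of 0.46, 0.37 and 0.33. They were matched to these cells after their values were seen. Gjb1 encodes the gap junction protein connexin 32. Of the precursor cell markers 0 of 6 were called (edgeR, DESeq2 and limma-voom), with 0 at an unadjusted p under 0.05 and a median of 0.0707 (0.11 with a length and GC offset and 0.035 with the number series as a covariate). The summed level of the 25 oligodendrocyte markers was 6040 to 7751 CPM in virgin and 7112 to 9625 CPM in primiparous females, with 6 of 8 primiparous libraries above all virgin libraries. Among animals with 3-digit numbers alone the list's median was 0.254, and with the number series as a covariate 0.167, with all 25 markers above 0 in both. Without animal 4486 or without animal 409, 1 marker passed, Olig1, and without animal 4493 there were 7, where 903 of all 13016 genes were called.

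Microglial markers had a larger median, 0.27, with 2 of 20 called higher, 0 lower, and 12 higher at an unadjusted p under 0.05. The called genes were C1qa and C1qb, which encode chains of complement C1q and are used by microglia in the healthy brain. C1qb (Entrez 12260, chr4:136880126-136886200) had 4.54 to 6.93 CPM in virgin females (median 5.92), against 7 to 11.2 CPM in primiparous females (median 8.97). The groups did not overlap, and the log2 fold change came to 0.62 (standard error 0.114, adjusted p = 0.0175, edgeR). C1qa had 15.9 to 20.5 CPM (median 16.7) and 17.7 to 28 CPM (median 23), and its log2 fold change came to 0.42 (standard error 0.092, adjusted p = 0.0363, edgeR). Its groups overlapped in 1 primiparous library, and the third chain gene, C1qc, had 0.25 (adjusted p = 0.219, edgeR).

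Tmem119 and Cx3cr1, 2 genes largely restricted to microglia in the brain, had log2 fold changes of 0.47 and 0.29 (adjusted p = 0.0579 and 0.0954, edgeR), while P2ry12, a purine receptor of the same cells, had 0.15 (adjusted p = 0.552, edgeR). Outside the list, Ctsh, a lysosomal cathepsin, was called higher (0.41), as were Cebpb, a transcription factor of myeloid cells and other tissues (0.77), and B2m, the light chain of class I antigen presentation (0.34). Ctsh, Cebpb and B2m were placed here after their values were seen. B2m was the 1 called gene of 11 tested interferon and antigen presentation genes, whose median was 0.13 (0.0383 among animals with 3-digit numbers and 0.0722 with the number series as a covariate). It was not called by limma-voom or with a length and GC offset. The summed level of the 20 microglial markers was 215 to 262 CPM in virgin and 254 to 318 CPM in primiparous females, with 5 of 8 above all virgin libraries. C1qb was called without animal 409 (adjusted p = 0.0446, edgeR), and no microglial marker was called without animal 4486 (0.0629 for C1qb). Limma-voom called C1qb alone, DESeq2 and the fit with a length and GC offset called 4 of the 20 each, and without animal 4493 edgeR called 6. Over all 13016 genes these settings called 72, 505, 471 and 903, in that order.

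The promoter of C1qb is shown because C1qb was called both here and in the test against the other brain regions below. It is RefSeq's sequence on GRCm38.p6, chr4:136886151-136886450 on the minus strand, and capitals mark GAGGAA, the core letters that the myeloid factor PU.1 prefers.
C1qb: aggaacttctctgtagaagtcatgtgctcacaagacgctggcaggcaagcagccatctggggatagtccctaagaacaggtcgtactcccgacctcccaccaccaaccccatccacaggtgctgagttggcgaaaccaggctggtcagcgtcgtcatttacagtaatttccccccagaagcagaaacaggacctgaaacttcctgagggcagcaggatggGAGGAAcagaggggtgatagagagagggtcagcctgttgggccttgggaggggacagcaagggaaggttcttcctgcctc
This window held 1 GAGGAA and no CCAAT. On either strand, GAGGAA was in 20 of the 60 promoters of higher genes (33.3%) and in 2635 of all 10260 (25.7%), and Fabp7's window also held 1.

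Lists for the coverings, blood and fluid spaces of the brain gave mixed values. Meningeal fibroblast markers had a median log2 fold change of 0.358, with all 12 tested above 0, 11 at an unadjusted p under 0.05 and 1 called. The called gene was Col3a1, a fibrillar collagen, with 5.75 to 8.03 CPM in virgin females (median 6.34), against 7.32 to 12.1 CPM in primiparous females (median 9.44). Its groups overlapped in 2 primiparous libraries, and its log2 fold change came to 0.54 (standard error 0.117, adjusted p = 0.0363, edgeR). Ptgds, the prostaglandin D synthase that is the most abundant gene of the list, had means of 982 and 1245 CPM and a log2 fold change of 0.34 (adjusted p = 0.0703, edgeR).

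Outside the list, the forkhead factors Foxc1 and Foxc2, which act in meninges and vessel walls, were called higher, with log2 fold changes of 0.48 and 0.83. Foxc2 was a low gene that separated the groups, at 1.89 to 3.21 CPM (median 2.58) against 3.38 to 5.85 CPM (median 4.58), with an adjusted p of 0.0241 (edgeR). Thbd, the anticoagulant receptor thrombomodulin of vessel linings and meninges, had 15.2 to 18.4 CPM in virgin and 20.3 to 31.5 CPM in primiparous females, separate groups, and a log2 fold change of 0.58 (standard error 0.0891, adjusted p = 0.00734, edgeR). Mmp14, a matrix metalloproteinase, and Col23a1, a membrane collagen, also separated the groups, at 0.31 and 0.35. These genes outside the list were matched to the tissue after their values were seen. Of the list's markers 0 were called without animal 4486 or without animal 409, 6 without animal 4493, 7 with a length and GC offset and 9 with DESeq2. Over all 13016 genes these settings called 6, 8, 903, 471 and 505, in that order.

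Blood genes had the largest median of all lists, 0.907 over 5 genes, all at an unadjusted p under 0.05. None passed the adjustment in edgeR or limma-voom, and 4 did in DESeq2 and in edgeR without animal 4493. DESeq2 called 505 of all 13016 genes, and edgeR without animal 4493 called 903. Hba-a2, an alpha globin gene, had 17.3 to 26.3 CPM in virgin and 19.2 to 53.9 CPM in primiparous females (log2 fold change 0.91, adjusted p = 0.0527, edgeR). Globin genes have near-identical copies, so the share of each copy is uncertain. The summed level of the 7 blood genes in the table was 119 to 158 CPM in virgin females and 121 to 287 CPM in primiparous females, where 7 of 8 were above all virgin libraries and the exception was animal 4493. Blood, meningeal and microglial genes were thus each higher in most primiparous libraries, and the part of blood or meninges in the tissue in the other results was not tested.

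Endothelial markers had a median of -0.0138, which turned to 0.0511 with the number series as a covariate and to 0.0102 among animals with 3-digit numbers. Of the 19 tested, 2 were higher at an unadjusted p under 0.05, a share close to the 10.7% of all genes. Cldn5, the tight junction gene of the blood-brain barrier, was among the 2 (0.24). Mural cell markers had a median of -0.135 (-0.0376 with the covariate and -0.18 among animals with 3-digit numbers), with 3 of 10 lower at an unadjusted p under 0.05. No gene of either list was called by edgeR, limma-voom or DESeq2. Ependymal markers, of the ciliated cells of the ventricle, had a median of 0.5 with 3 of 7 higher at an unadjusted p under 0.05, none called by edgeR or limma-voom and 2 by DESeq2, and with the number series as a covariate the median was 0.202. Choroid plexus markers had a median of 0.432 with 10 of 11 above 0, which turned to -0.0408 with 5 above 0 with the number series as a covariate. Their summed level varied widely between libraries, from 182 to 2005 CPM in virgin females and from 186 to 5443 CPM in primiparous females. The highest libraries were those of primiparous animal 421 and virgin animal 4491, followed by virgin animals 409 and 4489 at 1051 and 952.3 CPM. Of the 11 markers 0 passed even an unadjusted p under 0.05 (0 called also by limma-voom and DESeq2).

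**Figure D3:**
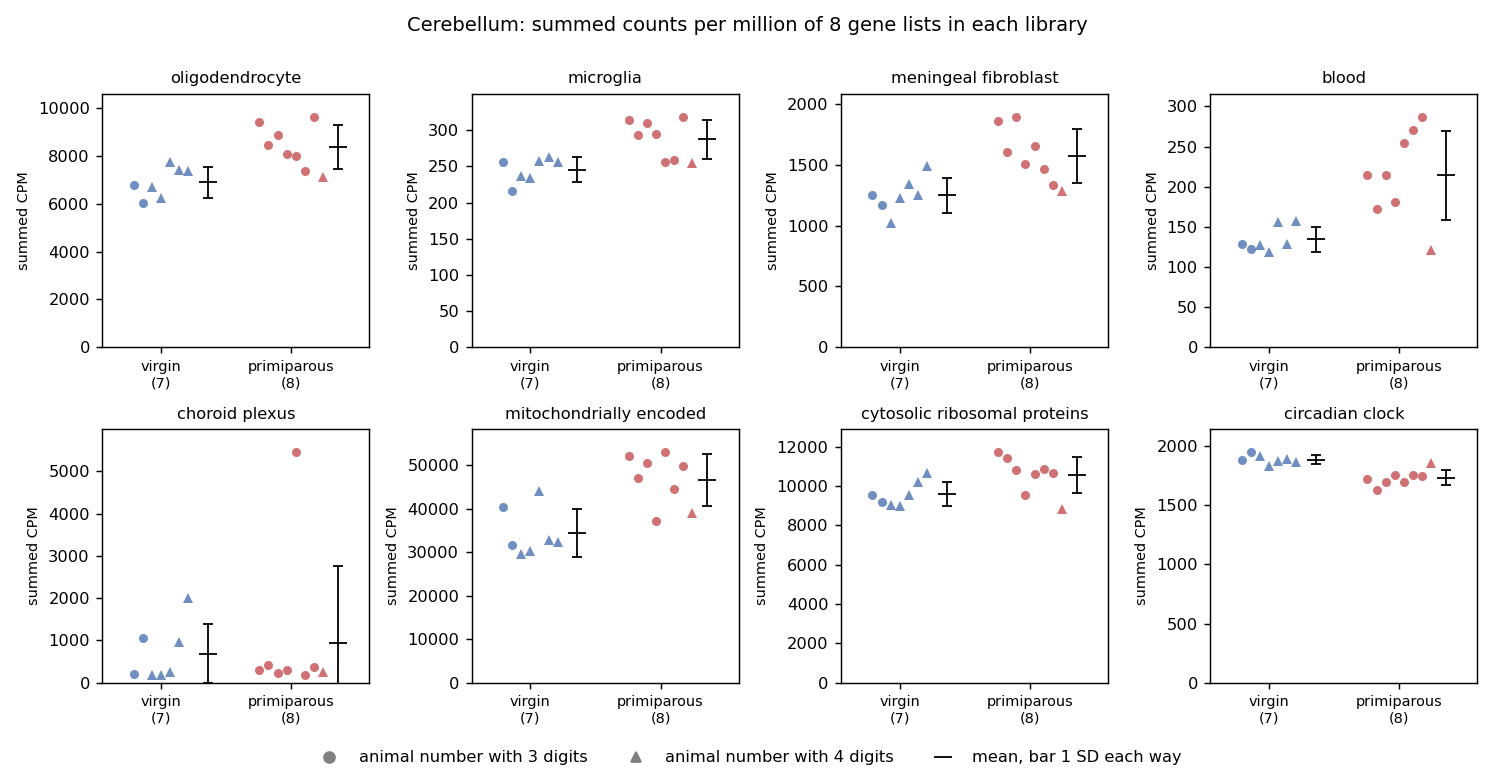
Vertical axes, summed CPM (on library totals without TMM) of each gene list in each cerebellum library from 0. Symbols are as in the plot of single genes, with the mean and 1 SD each way. Oligodendrocyte, blood and mitochondrially encoded genes lie higher in most primiparous libraries, circadian clock genes lie lower in 7 of 8, and choroid plexus genes vary widely between libraries, up to 5443 CPM.

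Among neuronal markers, those of Purkinje cells included 1 called gene and those of granule cells and interneurons 0 in edgeR. Granule cell markers tended to lower values, with a median of -0.0872 and 14 of 17 below 0. None was called by edgeR or limma-voom, 1 by DESeq2 and 3 without animal 4493, and 6 were lower at an unadjusted p under 0.05 (8.83% of all genes). Cbln3, a secreted synaptic organizer of granule cells, had 1466 to 1656 CPM in virgin females (median 1534), against 1220 to 1517 CPM in primiparous females (median 1400). Of the 8 primiparous libraries 7 were below the lowest virgin library, with a log2 fold change of -0.15 (standard error 0.0456, adjusted p = 0.0856, edgeR). Gabra6, the receptor subunit that defines these cells, had -0.08 (adjusted p = 0.435, edgeR). The direction held among animals with 3-digit numbers (median -0.176, 0 of 17 above 0) and with the series as a covariate (median -0.111).

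Purkinje cell markers had a median of 0.052 (0.00819 with the number series as a covariate), with 1 of 22 called higher and 6 higher at an unadjusted p under 0.05. The called gene, Arhgef33, a guanine nucleotide exchange factor, had 201 to 245 CPM in virgin and 223 to 302 CPM in primiparous females (log2 fold change 0.28, adjusted p = 0.0452, edgeR), and it was not called without animal 4486, without animal 409 or by limma-voom, while 4 markers passed without animal 4493. Calb1 and Pcp2, classical Purkinje genes, both had 0.17 (adjusted p = 0.155 and 0.239, edgeR). Interneuron markers had a median of 0.11 with 4 of 15 higher at an unadjusted p under 0.05, none called by edgeR or limma-voom and 1 by DESeq2, and the smallest p was that of Pvalb (0.28, adjusted p = 0.0556, edgeR), which Purkinje cells also express. Cck, a neuropeptide gene, was called higher (0.28).

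Synaptic vesicle release genes had a median of -0.0649, with 6 of 25 lower at an unadjusted p under 0.05, none called by edgeR or limma-voom and 2 by DESeq2, and with a length and GC offset the median was -0.0323. Sv2b, a vesicle membrane protein, had 281 to 312 CPM and 244 to 283 CPM, a log2 fold change of -0.18 (adjusted p = 0.0556, edgeR). Receptor and channel lists sat at the background: glutamate receptors had a median of 0.00401, GABA-A receptors 0.0435, potassium channels -0.0175, and sodium and calcium channels -0.0251. With the number series as a covariate both receptor medians turned below 0 (-0.00481 and -0.0031), and with the length and GC offset that of potassium channels turned to 0.00219. Kcnh1, a voltage-gated potassium channel gene, was the 1 called gene of these lists. It had 78.2 to 92.3 CPM in virgin females (median 84.8), against 54.5 to 79 CPM in primiparous females (median 68.8). All but 1 primiparous library were below the lowest virgin library, and the log2 fold change came to -0.31 (standard error 0.0647, adjusted p = 0.0274, edgeR).

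Markers of neighbouring tissue overlapped between the groups in summed level. The summed level of 11 forebrain markers was 158 to 216 CPM in virgin and 184 to 233 CPM in primiparous females, most of it Ppp1r1b, a signalling gene that cerebellar cells also express, while the median log2 fold change of the list was -0.29 (-0.144 with the number series as a covariate and 0.0146 among animals with 3-digit numbers). Of 20 markers of the brainstem and cerebellar nuclei, 3 passed the filter, and the summed level of the list was 59.4 to 97.3 and 68.3 to 111 CPM. The 8 midbrain markers summed to 8.92 to 13.8 and 8.32 to 14 CPM. The median log2 fold change was 0.209 over the 3 tested brainstem markers (0.473 among animals with 3-digit numbers) and 0.651 over the 5 tested midbrain markers (0.211 with the covariate and 0.00534 among animals with 3-digit numbers). Called genes of these 3 lists numbered 0 with edgeR, limma-voom and DESeq2, and 1 gene, Ppp1r1b, had an unadjusted p under 0.05.

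Genes of the respiratory chain leaned to higher values in primiparous females, those of the mitochondrial genome most. All 15 tested mitochondrially encoded genes had an unadjusted p under 0.05 and a positive log2 fold change, with a median of 0.511. The 1 called by edgeR was mt-Nd4l, a complex I subunit, and limma-voom called 8 and DESeq2 14. Its level was 7.31 to 10.7 CPM in virgin females (median 8.11), against 9.71 to 18 CPM in primiparous females (median 14.7). The groups overlapped in 3 primiparous libraries, and the log2 fold change came to 0.71 (standard error 0.142, adjusted p = 0.0241, edgeR). The gene overlaps its neighbour mt-Nd4 on the mitochondrial genome, so the reads of the overlap cannot be assigned.

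The most abundant gene of the mitochondrial genome, mt-Co1, which encodes a subunit of complex IV, had means of 11115 and 14778 CPM (log2 fold change 0.41, adjusted p = 0.0652, edgeR). Summed over the list, the level was 29614 to 44211 CPM in virgin females (median 32323), against 37141 to 52981 CPM in primiparous females (median 48531). Of the 8 primiparous libraries 6 were above all virgin libraries, and the highest virgin libraries were those of animals 405 and 4488. The list made up 2.96% to 4.42% of the counts in virgin and 3.71% to 5.3% in primiparous females.

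Nuclear genes of the chain had smaller differences. Complex I had a median of 0.173, with 36 of 37 subunits above 0, 20 at an unadjusted p under 0.05 and 2 called, Ndufa13 (0.31) and Ndufab1 (0.33). Complexes II to IV had a median of 0.147, with 11 of 22 at an unadjusted p under 0.05 and 1 called, Cox7c, a small subunit of complex IV. Cox7c (Entrez 12867, chr13:86044798-86046795) had 64.4 to 78.7 CPM in virgin females (median 71.3), against 80.2 to 125 CPM in primiparous females (median 93.1). The groups did not overlap, and the log2 fold change came to 0.45 (standard error 0.0858, adjusted p = 0.0214, edgeR). ATP synthase had a median of 0.171 with 9 of 15 higher at an unadjusted p under 0.05, none called by edgeR or limma-voom and 1 by DESeq2. With the number series as a covariate the medians were 0.124 for complex I, 0.0801 for complexes II to IV, 0.0826 for ATP synthase and 0.351 for mitochondrially encoded genes. None of these nuclear or mitochondrial genes was called without animal 4486 or without animal 409. Without animal 4493, 14 genes of complex I, 7 of complexes II to IV, 5 of ATP synthase and all 15 mitochondrially encoded genes were, and DESeq2 called 7 of complex I and 4 of complexes II to IV. Over all 13016 genes tested, edgeR without animal 4493 called 903 and DESeq2 called 505.

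Mitochondrial ribosomal proteins had a median of 0.0808 (0.0237 with a length and GC offset) and protein import genes 0.0503 (0.0223). In both lists edgeR and limma-voom called 0, of 77 and 23 genes, and DESeq2 called 3 and 1. At an unadjusted p under 0.05, 12 and 6 were higher, against 10.7% of all genes. Other called genes of mitochondria, outside these lists and chosen after their values were seen, were Chchd2, Minos1, Micu2, Mpc2 and Fdx1, with log2 fold changes from 0.26 to 0.4. Mpc2 encodes part of the pyruvate carrier and Micu2 a regulator of calcium uptake. Pathways that feed the chain lay near the background, with medians of 0.00126 for 16 glycolysis genes and 0.0107 for 18 genes of the citric acid cycle (-0.0489 and -0.0296 with the number series as a covariate). In each, 0 were called by edgeR, limma-voom and DESeq2. At an unadjusted p under 0.05, 0 and 2 genes were higher and 1 and 0 lower, against 10.7% and 8.83% of all genes.

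Transcript length went with these values. With the genes cut by transcript length into 5 sets of like size, the median log2 fold change went from 0.0683 in the shortest to -0.0377 in the longest, and genes of the chain and the ribosome are short. After each library's trend with length and GC content was entered as an offset, edgeR called 322 genes higher (2.47%) and 149 lower (1.14%), 88 of the 92 among them. The median of complex I then fell to 0.0629, that of complexes II to IV to 0.036 (17 of 22 above 0), that of cytosolic ribosomal proteins to 0.0524 and that of ATP synthase to 0.0783. That of mitochondrially encoded genes fell from 0.511 to 0.339. The medians of oligodendrocyte (0.156), microglial (0.292) and meningeal genes (0.352) moved little, and that of all genes was 0.00321.

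Cytosolic ribosomal protein genes had a median of 0.163, with 76 of 80 above 0, 40 at an unadjusted p under 0.05 and 1 called, Rpl13a. DESeq2 called 15, the fit with the length and GC offset 8, and edgeR without animal 4493 called 32. Over all 13016 genes these settings called 505, 471 and 903, in that order. With the number series as a covariate the list's median was 0.0904. Rpl13a had 117 to 149 CPM in virgin females (median 124), against 140 to 220 CPM in primiparous females (median 188). All but 1 primiparous library were above the virgin range, with a log2 fold change of 0.5 (standard error 0.0771, adjusted p = 0.00734, edgeR), and it passed without either of the 2 virgin animals named above. Ribosomal protein genes have many processed copies in the genome, and reads that match several places were not counted, so their levels are uncertain.

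Chaperones of the endoplasmic reticulum, which fold secreted and membrane proteins, had a median of 0.194 with 11 of 20 higher at an unadjusted p under 0.05. None was called by edgeR or limma-voom, and 5 were by DESeq2 and by edgeR without animal 4493, settings with 505 and 903 calls over all genes. The smallest p was that of Pdia3, a disulfide isomerase (0.27, adjusted p = 0.0527, edgeR), and Xbp1, a factor of the unfolded protein response, had 0.37 (adjusted p = 0.0755, edgeR). Serp1, which stabilizes membrane proteins in the same compartment, was called higher outside the list (0.25). Heat shock genes of the cytosol had a median of 0.0696, proteasome genes 0.0373 and V-ATPase genes 0.0211. The medians of heat shock and V-ATPase genes turned to -0.00161 and -0.0134 with the number series as a covariate, and that of proteasome genes to -0.0082 with the length and GC offset.

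**Figure D4:**
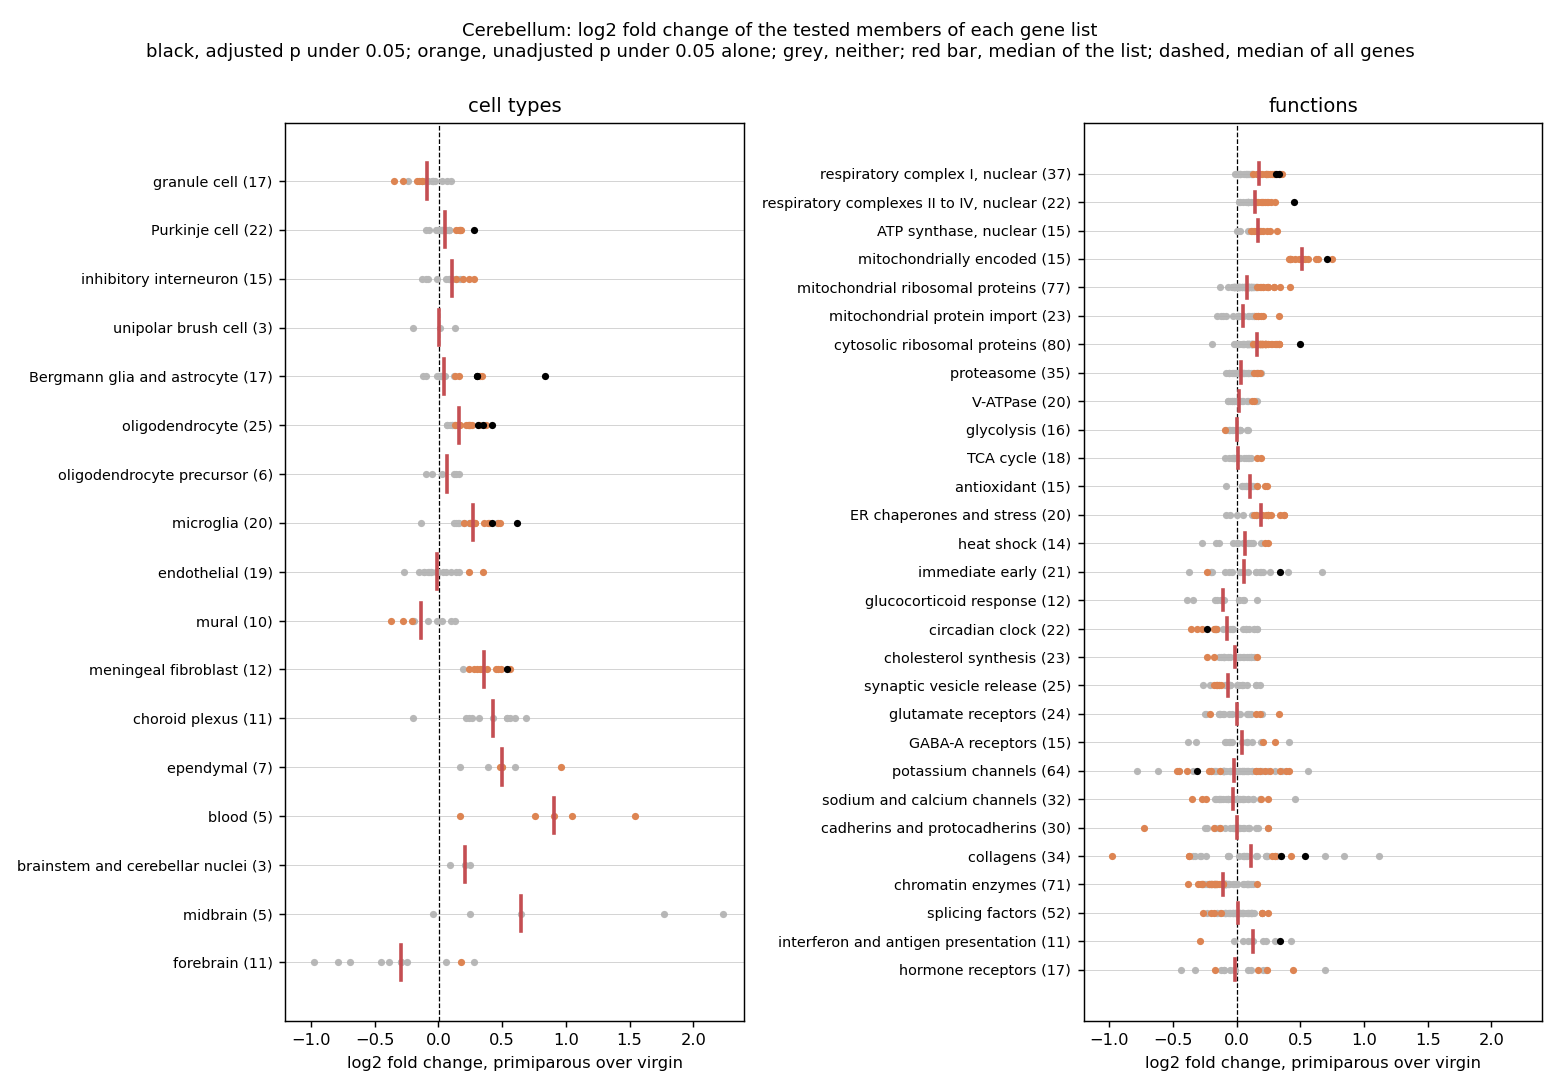
Horizontal axes, log2 fold change of primiparous over virgin cerebellum; each point is a tested gene of the list named at the left (number tested in parentheses), black where the adjusted p was under 0.05 and orange where only the unadjusted p was. The red bars mark list medians, such as 0.358 for meningeal fibroblasts, 0.511 for mitochondrially encoded genes and -0.0872 for granule cells, and the dashed line the median of all genes, 0.00507.

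Of the 92 called genes 84.8% were higher and the rest lower, a split that was 66.1% higher with DESeq2, 68.4% with the length and GC offset and 56.4% (509 higher and 394 lower) without animal 4493. Circadian clock genes tended to lower values, with a median of -0.0755, 1 of 22 called lower and 8 lower at an unadjusted p under 0.05. The called gene was Nr1d1, which encodes the clock repressor REV-ERB alpha (Entrez 217166, chr11:98767932-98775377). It had 201 to 237 CPM in virgin females (median 228), against 170 to 216 CPM in primiparous females (median 187). The groups overlapped in 2 primiparous libraries, and the log2 fold change came to -0.23 (standard error 0.0547, adjusted p = 0.0483, edgeR). It was not called by limma-voom, without animal 4486 or without animal 409, and without animal 4493 the list had 4 calls.

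The other clock genes at an unadjusted p under 0.05 were Tef (-0.18), Cry2 (-0.16), Per3 (-0.36), Nr1d2 (-0.16), Bhlhe40 (-0.17), Per2 (-0.31) and Per1 (-0.27), and the activators Arntl and Clock had 0.07 and -0.04 (adjusted p = 0.482 and 0.723, edgeR). Summed over the list, 7 of 8 primiparous libraries were below all virgin libraries, at 1625 to 1852 CPM against 1834 to 1945. Tissue was taken within 2 hours on 1 day, per the methods, and the order of the animals within that window is not given. The list's median was -0.0358 among animals with 3-digit numbers and -0.0283 with the series as a covariate.

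Chromatin enzymes had a median of -0.106, with 60 of 71 below 0, 21 lower and 1 higher at an unadjusted p under 0.05, none called by edgeR or limma-voom and 2 by DESeq2. The smallest p was that of Ezh1, a histone H3 lysine methyltransferase (-0.2, adjusted p = 0.0553, edgeR), and Chd7, a remodelling enzyme of granule cells among others, had -0.3 (adjusted p = 0.0679, edgeR). After the length and GC offset the list's median was -0.0761, with 4 called lower, and 8 were called without animal 4493. Over all 13016 genes, 149 were called lower after the offset and 394 lower without animal 4493. The median was -0.0685 with the number series as a covariate, where 18 of the 71 genes were above 0.

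The strongest of the 14 lower genes by fold was Aloxe3, a lipoxygenase gene, with 7.82 to 12.2 CPM in virgin females (median 10.4), against 5.24 to 8.69 CPM in primiparous females (median 7.5). The groups overlapped in 4 primiparous libraries, and the log2 fold change came to -0.51 (standard error 0.121, adjusted p = 0.0483, edgeR). Gle1, an mRNA export factor, was a lower gene whose groups did not overlap, with 82.1 to 87.5 CPM in virgin and 70.5 to 79 CPM in primiparous females (-0.2, adjusted p = 0.0322, edgeR). Other lower genes were Klhl3, Phyhd1, Wipf3, Pcdhgb7, Car4, Snrnp200, Sel1l3, Exoc1 and 1700025G04Rik, from -0.47 for Klhl3, an adaptor of a ubiquitin ligase, to -0.22. Car4 is a carbonic anhydrase of capillaries and Snrnp200 a helicase of the spliceosome. Called lower genes numbered 0 without virgin animal 4486, 409 or 4487 or without primiparous animal 413, where edgeR had 1809, 2022, 2016 and 2028 genes at an unadjusted p under 0.05 in either direction.

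The gene with the smallest p of all was Prdm8, a transcriptional repressor of the PR domain family with a role in neurons (Entrez 77630, chr5:98167203-98187454). It had 40.5 to 45.2 CPM in virgin females (median 43.5), against 50.9 to 61.1 CPM in primiparous females (median 55.7). The groups were well separated, with a log2 fold change of 0.37 (standard error 0.0519, adjusted p = 0.00292, edgeR), and Prdm8 passed in each of the fits that left out 1 of the 2 virgin animals named above. Its partner factor Bhlhe22 had 87.4 to 106 CPM (median 93.8) and 104 to 129 CPM (median 121), with 7 of 8 primiparous libraries above the virgin range and a log2 fold change of 0.33 (standard error 0.0548, adjusted p = 0.011, edgeR).

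Several called genes had a single exon. Of the 76 higher genes with a gene model, 15 (19.7%) had 1 exon in every annotated transcript, against 0 of the 14 lower genes and 252 of 12632 genes tested (1.99%). They were Foxc2, Cebpb, mt-Nd4l, Fzd2, Tusc1, Thbd, Foxc1, Sox2, Gas1, Cenpb, Olig1, Sox1, Ier5, Bhlhe22 and Tmem229a. The median log2 fold change of all 252 genes with 1 exon was 0.111. The summed level of 1525 olfactory, vomeronasal and taste receptor genes, which are little used in the brain, was 269 to 302 CPM in virgin and 253 to 311 CPM in primiparous females, and these ranges overlapped widely.

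The remaining leading genes belonged to no single cell type. Nnat, an imprinted gene of a membrane protolipid, had 44.8 to 66 CPM and 61.2 to 124 CPM (0.67, adjusted p = 0.0394, edgeR), and Fzd2, a Wnt receptor, had 3.09 to 5.42 and 4.09 to 7.7 CPM (0.69, adjusted p = 0.0394, edgeR). Lix1 separated the groups at 5.53 to 7.21 and 8.01 to 12.7 CPM (0.57, adjusted p = 0.024, edgeR). Lpar1, a receptor for lysophosphatidic acid in oligodendrocytes and other cells, had 0.41, and Chst2, a sulfotransferase of the extracellular matrix, had 0.31. In all, 20 of the 92 called genes were in at least 1 of the 46 lists and 72 were in none.

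The difference in the cerebellum was then set against the mean of the same difference in the hypothalamus, hippocampus, neocortex and amygdala of these animals, in 1 fit of all 10 groups. It departed from that mean for 50 genes (0.384%), of which 36 were higher and 14 lower, and for 89 (0.684%) with the animal as a replicate block, all 50 among them (adjusted p under 0.05, edgeR). Without virgin animal 4486 the number was 1, and without primiparous animal 4493 it was 285. Of the 92 cerebellum genes, 14 of the 78 higher and 2 of the 14 lower departed in this test. Among the cell type markers, C1qb was called, with a departure of 0.63 (standard error 0.132, adjusted p = 0.0217, edgeR), since its log2 fold change was 0.62 in the cerebellum and between -0.19 and 0.19 in the other regions. The microglial list's median was 0.0223 in the hypothalamus, -0.0663 in the hippocampus and 0.0136 in the neocortex. In the amygdala it was 0.171, with all 20 markers above 0 as most were in the cerebellum. Fabp7 was not (0.36, adjusted p = 0.512, edgeR), as its log2 fold change was 0.36 to 0.6 in the other regions too.

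Of the mitochondrially encoded genes 6 of 15 departed. Their median log2 fold change was 0.511 here, against 0.0799 for the hippocampus, 0.263 for the amygdala, -0.188 for the neocortex and -0.473 for the hypothalamus, where 13 of the 15 were called (22.6% of all genes were called there). In the hippocampus, neocortex and amygdala edgeR called 0 genes, with 7.38%, 9.8% and 11.9% of all genes at an unadjusted p under 0.05. Nr1d1 also differed in direction, at -0.23 in the cerebellum and 0.24 in the hypothalamus (adjusted p = 0.019 there, edgeR), and its departure was -0.29 (standard error 0.0721, adjusted p = 0.0427, edgeR). Cox7c, Rpl13a, Cebpb, Prr18, Camk2n2 and Fzd2 departed by 0.38 to 0.79. Lix1 had the smallest p of this test, with a departure of 0.58 (standard error 0.0995, adjusted p = 0.00133, edgeR).

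Blood genes had medians of 0.388 to 0.504 in the other regions, in the same direction as 0.907 in the cerebellum, and meningeal genes had -0.27 in the hypothalamus and 0.171 to 0.273 elsewhere. The oligodendrocyte median was 0.0444 in the hypothalamus, -0.0473 in the hippocampus, 0.084 in the neocortex and -0.119 in the amygdala, and 0 of the 25 markers departed in edgeR, with or without the replicate block. Of the 78 higher genes, 51 were above 0 in the hypothalamus, 38 in the hippocampus, 50 in the neocortex and 43 in the amygdala. Among all 13016 genes tested the counts above 0 were 6857, 6496, 6417 and 6567 in the same order. Of the 14 lower genes 6, 6, 8 and 5 were above 0. In the hypothalamus 18 of the 78 higher genes were called, a share close to the 22.6% of all genes.

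**Figure D5:**
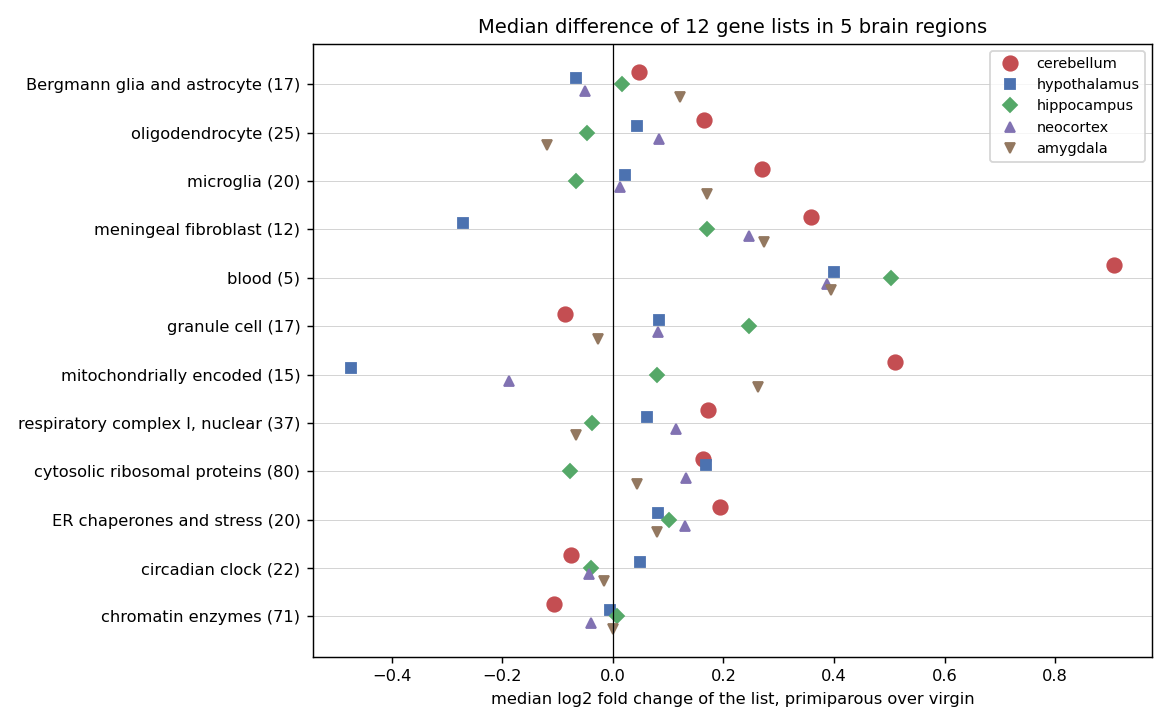
Horizontal axis, median log2 fold change (primiparous over virgin) of 12 gene lists, with 1 symbol for each of 5 brain regions and the number of genes tested in parentheses. Mitochondrially encoded genes range from -0.473 in the hypothalamus to 0.511 in the cerebellum, while blood genes are above 0 in all 5 regions.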

How the data were processed

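RNA of single regions of single animals was sequenced as single-end reads from poly(A) RNA. Per the labels the authors used HISAT2 on mm10, and featureCounts gave the deposited raw counts of reads that map once; the kit does not mark strand, so reads of overlapping genes cannot be told apart. The authors' deposited log2 values served as an alternative only: they equal log2(count over a size factor + 4) within 5.0e-05 and lie a median of 3.94 from log2(CPM + 4). The 3 libraries the authors removed, 1 of them a virgin cerebellum, were not used here.

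A gene was kept where 8 or more of 77 libraries reached 5 CPM (13016 of 27179), and tested in R 4.3.3 with edgeR 4.0.16 (TMM, robust quasi-likelihood F-test, Benjamini-Hochberg), with a biological coefficient of variation of 12%. Depth was 8702483 to 29090360 counts. Each animal gave several regions, and a second fit of the comparison with the other regions took each animal as a replicate block. Alternatives used limma 3.58.1, DESeq2 1.42.0, other filters and normalization, the number series, a length and GC offset, and leaving out each library. Figures were drawn with Python 3.11.15 and matplotlib 3.10.9. Symbols came from the deposited table for 11939 of 12904 named genes, positions and promoters from RefSeq on GRCm38.p6, and length, GC and exons from GENCODE M21 (12632 genes).

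The fits were tested on simulated data. The libraries and gene lists were chosen with earlier results of these data known. Genes were named by rule as the 10 called genes highest and the 10 lowest in log2 fold change, the 10 of smallest p, up to 4 called members of each list or else its member with the smallest p, and the 5 with the smallest p against the other regions; all others were named after their values were seen. Some genes are not reported here.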

Additional observations from a re-analysis of the deposited data

Results flagged for a closer look

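Single libraries stood apart from the rest of their group in 14 of 246 groups checked, and chance alone flags about 1 in 20. Among single genes these were Bhlhe22 at 106 CPM in virgin animal 405, Fzd2 at 5.42 CPM in virgin animal 4491, Klhl3 at 25.9 CPM in virgin animal 4486 and Mrpl54 at 7.67 CPM in virgin animal 4488. In primiparous females they were Otx2 at 16.3 CPM and Snrnp200 at 202 CPM in animal 421, Phyhd1 at 41.9 CPM in animal 425, Prdx5 at 184 CPM in animal 4493 and Psmb4 at 149 CPM in animal 414. Among summed lists they were choroid plexus genes at 5443 CPM in primiparous animal 421, unipolar brush cell genes at 48.2 CPM in animal 418, oligodendrocyte precursor genes at 136.4 CPM in animal 413, interferon genes at 402.8 CPM in animal 427, and chaperones of the endoplasmic reticulum at 3412 CPM in virgin animal 4489.

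The difference in the cerebellum departed from the mean difference of the other regions (log2, edgeR) for 13 of the named genes. It was higher for Cebpb (0.79), Fzd2 (0.68), C1qb (0.63), Ildr2 (0.59), Lix1 (0.58), Prr18 (0.51), Rpl13a (0.5), Cox7c (0.46), Camk2n2 (0.38), Btbd1 (0.33) and Hnrnpab (0.27), and lower for Proz (-0.61) and Nr1d1 (-0.29).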

How the results depend on the processing

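The number of cerebellum genes called, 92 in edgeR, was 505 with DESeq2, 618 in limma-voom with sample quality weights, 471 with the length and GC offset and 57 with edgeR's own filter on low counts. It was 0 both with the animal number series as a covariate and among 3-digit animals alone, and from 6 to 903 when 1 animal was left out. It stayed within 1.5 times of 92 with limma-voom (72), another normalization (85), no filter (64), 1 fit of all 10 groups (95, of which 36 were among the 92) and limma on the deposited log2 values (107), the last chosen after seeing the data. All 92 genes kept their direction in each of these, which share libraries with the reported fit. For the difference against the other regions, 50 genes in edgeR became 89 with the animal as a replicate block, 197 with the replicate block and the length and GC offset, 154 with that offset alone and 96 with limma-voom, and from 1 to 285 when 1 animal was left out. The cause of these shifts was not tested. The share of called genes that were higher, 84.8%, was 63.4% with sample quality weights and from 56.4% to 100% when 1 animal was left out. Depth was not varied.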
